A study of Mus musculus with 40 samples.

Results

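The transcripts of 39 genes for lysosomal enzymes, lysosomal membrane proteins and their regulators were followed after closed head injury (CHI) in 3xTg-AD females, in somatomotor cortex of the left hemisphere. The genes were taken by symbol from a table of 55539 annotated features, and each was found there 1 time. They comprised 12 proteases (Ctsa, Ctsb, Ctsc, Ctsd, Ctsf, Ctsh, Ctsl, Ctso, Ctss, Ctsz, Lgmn, Tpp1), 9 glycosidases (Gla, Glb1, Gusb, Hexa, Neu1, Man2b1, Manba, Gaa, Naglu), 8 genes of lipid handling (Lipa, Asah1, Smpd1, Ppt1, Npc1, Npc2, Psap, Gm2a), 8 membrane proteins (Lamp1, Lamp2, Cd63, Cd68, Laptm4a, Laptm5, Scarb2, Mcoln1), and progranulin (Grn) with the transcription factor Tfeb. On general knowledge of brain cell types, 8 of them (Ctsc, Ctsh, Ctss, Ctsz, Lgmn, Cd68, Laptm5, Grn) were set apart as microglia-rich, and the other 31 are called broad because neurons, astrocytes and oligodendrocytes also use them. All 39 passed the filter on low counts, among 15232 features tested.

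The 3xTg-AD line carries human APP and MAPT transgenes under the neuronal Thy1 promoter, and all groups here, sham-injured included, share it, so no wild-type animal was measured. The mice, on a C57BL/6J background, were 2 to 4 months old and received a weight drop on the closed skull under isoflurane once daily. For 1, 3 or 5 injuries (1xCHI, 3xCHI, 5xCHI) cortex was collected 30 min, 4 h or 24 h later, and for 2 or 4 injuries only 24 h later (2xCHI, 4xCHI), which is also the state just before the third or the fifth injury. Sham-injured mice had the anesthesia without the drop. The study pooled those of 1 sex into 1 group, whatever their time point and number of anesthesia exposures. The labels of the 4 used here give no number of exposures. The 12 groups held 39 samples, with 4 sham-injured ones, 3 of 2xCHI and 3 of 4xCHI. In order of time there were 3, 3 and 4 samples of 1xCHI, 3, 2 and 4 of 3xCHI, and 3, 3 and 4 of 5xCHI. Samples are named below by their group and by the number in their title.

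Lysosomes break down proteins, glycans and lipids in an acidic lumen that membrane proteins enclose and supply. Cathepsins cut proteins, glycosidases remove sugars from glycolipids and glycoproteins, and activator proteins such as Psap and Gm2a present lipids to the enzymes. Tfeb binds the promoters of many of these genes and raises their transcription when lysosomal capacity is limiting. Microglia, the phagocytes of the brain, are rich in some cathepsins and in Cd68, and loss of single lysosomal genes such as Grn, Hexa or Npc1 causes neurodegeneration in mice or people.

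To show the sequence context of these genes, a 180-base stretch of promoter, from 160 bases before the transcription start to 20 bases from it, is given for 6 members. The stretches are from RefSeq promoters of GRCm38.p6 and are written 5′ to 3′ along the gene. Ctsd, Lamp1, Glb1 and Mcoln1 are shown because they hold CACGTG, the core of the site that Tfeb and its relatives bind, and Ctss and Ctsc because they hold GAGGAAGT on the other strand, a site of the kind bound by the myeloid factor PU.1. Capitals mark the matches, and Ctsd holds a further match 245 bases before the start, outside its stretch.
Ctsd (chr7:142387808-142387987, minus strand): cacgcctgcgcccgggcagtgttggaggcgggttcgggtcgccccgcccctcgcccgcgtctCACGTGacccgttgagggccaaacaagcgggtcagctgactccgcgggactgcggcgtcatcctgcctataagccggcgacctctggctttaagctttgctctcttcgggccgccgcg
Lamp1 (chr8:13159001-13159180, plus strand): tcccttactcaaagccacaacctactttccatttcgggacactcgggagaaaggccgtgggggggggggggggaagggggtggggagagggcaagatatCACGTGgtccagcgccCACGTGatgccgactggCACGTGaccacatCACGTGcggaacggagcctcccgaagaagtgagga
Glb1 (chr9:114400918-114401097, plus strand): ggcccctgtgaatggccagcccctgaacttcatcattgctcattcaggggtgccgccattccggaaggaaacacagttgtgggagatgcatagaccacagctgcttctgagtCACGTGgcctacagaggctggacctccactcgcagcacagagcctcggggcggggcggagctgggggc
Mcoln1 (chr8:3500359-3500538, plus strand): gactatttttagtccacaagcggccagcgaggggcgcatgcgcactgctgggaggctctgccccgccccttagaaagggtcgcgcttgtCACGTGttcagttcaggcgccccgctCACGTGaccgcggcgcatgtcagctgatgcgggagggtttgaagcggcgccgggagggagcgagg
Ctss (chr3:95526626-95526805, plus strand): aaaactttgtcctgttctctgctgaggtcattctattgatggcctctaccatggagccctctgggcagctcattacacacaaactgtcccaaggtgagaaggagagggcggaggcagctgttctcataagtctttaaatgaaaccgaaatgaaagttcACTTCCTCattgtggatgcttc
Ctsc (chr7:88277925-88278104, plus strand): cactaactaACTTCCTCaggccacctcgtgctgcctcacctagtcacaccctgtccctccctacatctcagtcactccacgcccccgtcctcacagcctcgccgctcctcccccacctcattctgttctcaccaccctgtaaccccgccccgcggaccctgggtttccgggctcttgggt
Promoters of 300 bases, 250 before to 50 after the start, were found for 35 of the 39 members, and not for Asah1, Ctsb, Ctsh and Npc1. CACGTG, which reads the same on both strands, occurred in 11 of these 35 (31.4%): Ctsa, Ctsd, Ctsf, Ctsl, Gaa, Gla, Glb1, Lamp1, Lgmn, Mcoln1 and Naglu. It occurred in 8.09% of all 27025 genes with a promoter of this length. The longer TCACGTGA, which contains CACGTG, was found in Ctsa, Ctsd, Gla and Mcoln1, 4 of 35 members (11.4%), against 1.12% of all genes. GAGGAAGT, searched on both strands, was found in Ctsc, Ctss, Gla and Gusb (4 of 35, 11.4%), against 3.69% of all genes. Lamp1 held CACGTG 4 times, with first bases 61, 45, 28 and 15 bases before the start. A match is a description of these letters and not evidence of binding.

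Levels were compared between genes per length, as CPM (counts scaled to the same total in each sample) per kilobase of exon, in the 4 sham-injured samples. Psap, which encodes the precursor of the saposins, was highest at 509 ± 17.9 CPM per kilobase (SD, n = 4). The aspartic protease Ctsd followed at 113 ± 3.27, then the major membrane glycoprotein Lamp1 at 98.8 ± 6.43, the cysteine protease Ctsb at 86.6 ± 4.59 and Laptm4a at 82.4 ± 3.90. These 5 genes are broad members. Among the microglia-rich members, Lgmn (asparagine endopeptidase) was highest at 41.1 ± 1.98, followed by Ctss at 32.2 ± 3.17 CPM per kilobase. The phagocytic marker Cd68 stood at 4.07 ± 1.39, Ctsh at 1.77 ± 0.387 and Ctsc at 1.29 ± 0.117. Tfeb was the lowest of all 39 at 1.28 ± 0.258, within the SD of Ctsc. In these bulk samples fewer cells of a type and less RNA per cell cannot be told apart.

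Before the comparisons, 2 libraries of 5xCHI must be described, because many results rest on them. Sample 10 (5xCHI, 4 h) and sample 11 (5xCHI, 24 h) stood apart from the other 37 samples. Of 15232 features, 8.11% were higher in sample 10 than in each of those 37, and 17.9% in sample 11. For the members the counts were 28 of 39 in sample 10, 33 of 39 in sample 11, and 27 in both. All 8 microglia-rich members exceeded the 37 in both samples, as did 19 of 31 broad members. Relative to the sham-injured median, the median ratio over microglia-rich members was 2.50 in sample 10 and 4.05 in sample 11, and over broad members 1.28 and 1.54. The map of the members by sample shows both as red columns.

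**Figure D1:**
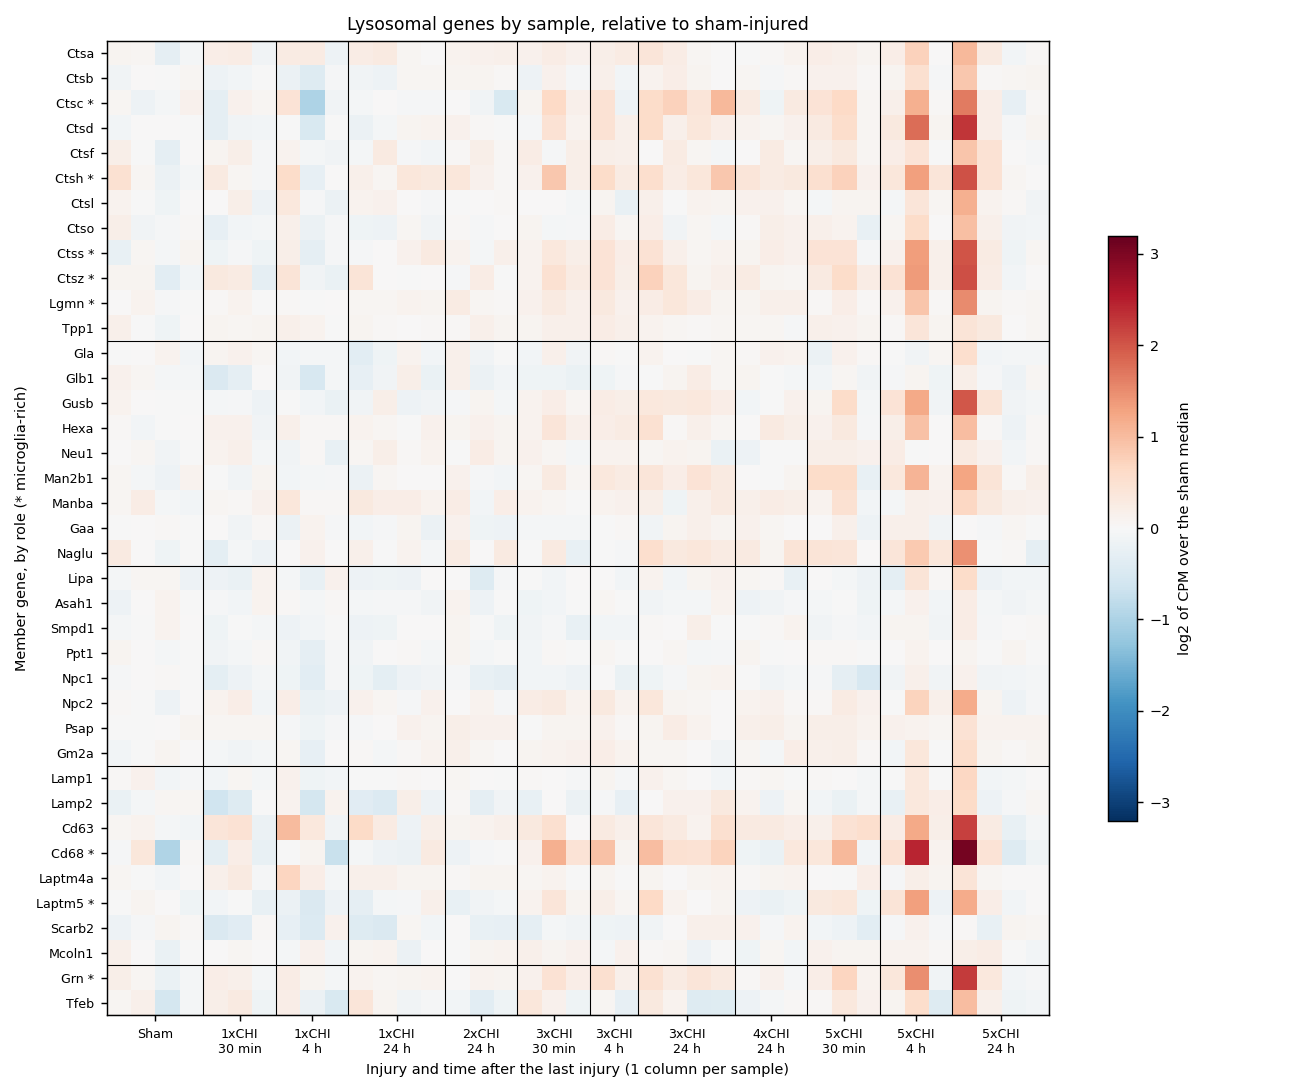
Map of 39 lysosomal genes (rows, by role, microglia-rich ones starred) in 39 samples (columns, by injury and time), coloured by log2 of CPM over the sham-injured median. The columns of sample 10 (5xCHI 4 h, second of its group) and sample 11 (5xCHI 24 h, first of its group) are red across most rows, with Cd68 at ratios of 5.40 and 8.30, while rows such as Gaa and Ppt1 stay pale.

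Cell type markers also stood apart in these 2 libraries. The summed CPM of 17 microglial markers was 909 in sample 10 and 1096 in sample 11, against 316 to 538 in the other 37, and 16 and 15 of the 17 exceeded all 37. None of the 17 was at 0 in all samples. Relative to the sham-injured median, the adaptor Tyrobp (7.26) and the complement gene C1qc (6.68) were highest in sample 11 and the receptor Fcrls (4.92) and Tyrobp (4.79) in sample 10, whereas the homeostatic receptor P2ry12 was at 1.28 in sample 10 and 0.975 in sample 11. The sum of 10 astrocyte markers was 6787 and 7524 CPM against 3170 to 5316, that of 10 oligodendrocyte markers 8240 (inside the range of the others) and 9340 against 4133 to 8245, and that of 10 neuronal markers 6583 and 5890 against 7332 to 9733. Gfap, the intermediate filament of reactive astrocytes, was at 1608 CPM in sample 10 and 2391 in sample 11, against 106 to 559 in the other 37. Markers of border macrophages, endothelium, meningeal fibroblasts, blood leukocytes and hemoglobin lay within the range of the other samples. Of the 6 blood leukocyte markers 0 passed the filter on low counts, with sums of 0.663 and 1.01 CPM, and of the 6 border macrophage markers 4 did. These ranges therefore say little about such cells. The meningeal fibroblast range reached 3952 CPM in a 1xCHI sample. The part of these marker levels in the member levels was not tested, and the counts and the fold changes that rest on samples 10 and 11 are given with and without them.

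The members' levels after any number of injuries were compared with sham-injured levels, with the time points combined. No member passed an adjusted p of 0.05 by edgeR's quasi-likelihood test for 1x, 2x, 3x, 4x or 5xCHI, and no feature of the 15232 did (0%), while DESeq2 called 30 features for 1xCHI, 10 for 5xCHI and none for the others. At an unadjusted p under 0.05, the members differing were 1 higher and 2 lower for 1xCHI, none for 2x, 3x and 4xCHI, and 20 higher and none lower for 5xCHI. Over all features the corresponding shares were 9.94% higher and 7.02% lower for 1xCHI, 2.25% higher for 3xCHI, and 7.20% higher and 4.36% lower for 5xCHI. The shares for 2xCHI and 4xCHI and the share lower for 3xCHI are not given. The counts of 0 there are therefore not read as results about the members. DESeq2 gave no adjusted call among the members in these comparisons either.

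Without samples 10 and 11 the counts were 3 higher and 2 lower for 1xCHI, against 12.5% of all features higher and 8.04% lower. They were 1 higher for 2xCHI (3.11% of features) and 1 higher for 4xCHI (0.959% of features), Psap in both, with no adjusted call in any.

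After 5xCHI, the 20 members included all 8 microglia-rich ones and 12 of 31 broad ones, and the log2 difference from sham-injured had a median of 0.22 over the 39 members against 0.00 over all features. By role, 10 of 12 proteases, 4 of 9 glycosidases, 2 of 8 lipid-handling genes, 3 of 8 membrane proteins and Grn were among them. The lysosomal alpha-mannosidase Man2b1 had the smallest p, with a log2 difference of 0.52 ± 0.15 (SE, adjusted p = 0.358). Ctsz followed at 0.76 ± 0.25 (adjusted p = 0.372) and Cd68 at 1.30 ± 0.44 (adjusted p = 0.372). Without samples 10 and 11, 6 members were higher and 1 lower at an unadjusted p under 0.05, against 3.60% of all features higher and 3.05% lower. The 6 were Man2b1, Ctsz, Ctsd, Ctss, Psap and Grn, named after their values were seen, and the lower one was Npc1. The log2 differences were then 0.29 for Man2b1, 0.31 for Ctsz and 0.35 for Cd68. With the samples of the compared groups alone the 20 members became 2, against 5.53% of all features higher in that fit, and with samples 1 to 18 as a covariate they became 12, against 3.72%.

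Man2b1 in the sham-injured samples 6, 20, 35 and 39 was at 32.0, 29.0, 27.4 and 32.9 CPM. It was at 33.6, 29.6 and 28.6 CPM in 2xCHI and 31.0, 30.5 and 32.2 in 4xCHI. The lowest, median and highest values were 26.7, 29.9 and 32.4 in 1xCHI, 31.8, 37.1 and 41.4 in 3xCHI, and 26.0, 39.6 and 72.5 in 5xCHI. The 3xCHI samples thus overlapped with the sham-injured ones only at their low end, and in 5xCHI sample 33 lay within the sham-injured range and sample 31 below it. Samples 7, 8, 9 and 12 of 5xCHI, with numbers of 18 or below, were at 46.1, 45.5, 38.3 and 40.9 CPM. Samples 31, 32, 33 and 34 were at 26.0, 33.1, 31.25 and 34.5. The part of this split in the difference left without samples 10 and 11 was not tested. Man2b1 spans chr8:85083270-85098282 on the plus strand (GENCODE M21, GRCm38).

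Ctsd (chr7:142375911-142388038, minus strand) was at 254, 269, 272 and 268 CPM in the sham-injured samples. It was at 297, 275 and 268 CPM in 2xCHI and at 290, 281 and 296 in 4xCHI. In 5xCHI at 30 min Ctsd was at 326, 399 and 281 CPM, at 4 h it was at 335, 920 and 284, and at 24 h at 1309, 313, 261 and 284. Samples 10 and 11 were therefore far above the next highest value of any sample, 405 CPM in a 3xCHI sample. In 1xCHI the lowest, median and highest values were 192, 256 and 290 CPM, and in 3xCHI 263, 309 and 405.

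Cd68 (chr11:69664213-69666153, minus strand), the macrosialin of phagocytes, was at 5.24, 6.95, 2.75 and 5.55 CPM in sham-injured samples. Its lowest, median and highest values were 3.29, 5.00 and 6.54 CPM in 1xCHI, 5.69, 7.50 and 11.9 in 3xCHI and 4.06, 7.14 and 44.8 in 5xCHI. It was at 4.85, 5.21 and 5.33 CPM in 2xCHI and at 4.89, 4.66 and 6.85 in 4xCHI. Cd68 was a low transcript whose 3xCHI values overlapped with sham-injured ones, and samples 10 and 11 (29.1 and 44.8 CPM) were the highest. Ctsz, a carboxypeptidase, was at 32.9, 33.1, 24.6 and 29.2 CPM in sham-injured samples, with 25.5, 31.3 and 41.5 as the lowest, median and highest in 1xCHI and 32.9, 37.5 and 51.9 in 3xCHI. Its range in 5xCHI was 29.2 to 130 CPM with a median of 37.4, and the groups overlapped.

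Grn, the precursor of granulins, was at 44.6, 41.3, 34.1 and 37.8 CPM in sham-injured samples. Its lowest, median and highest values were 37.7, 42.6 and 46.7 CPM in 1xCHI, 43.4, 48.0 and 56.4 in 3xCHI and 36.8, 48.1 and 187 in 5xCHI. In 2xCHI Grn was at 40.0, 42.9 and 41.9 CPM and in 4xCHI at 40.3, 43.5 and 38.7. All groups overlapped with the sham-injured samples. Ctss, a cathepsin of microglia and other antigen-presenting cells, was at 37.9, 46.2, 42.9 and 47.6 CPM in sham-injured samples, and its highest values were 112 and 179 in samples 10 and 11.

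**Figure D2:**
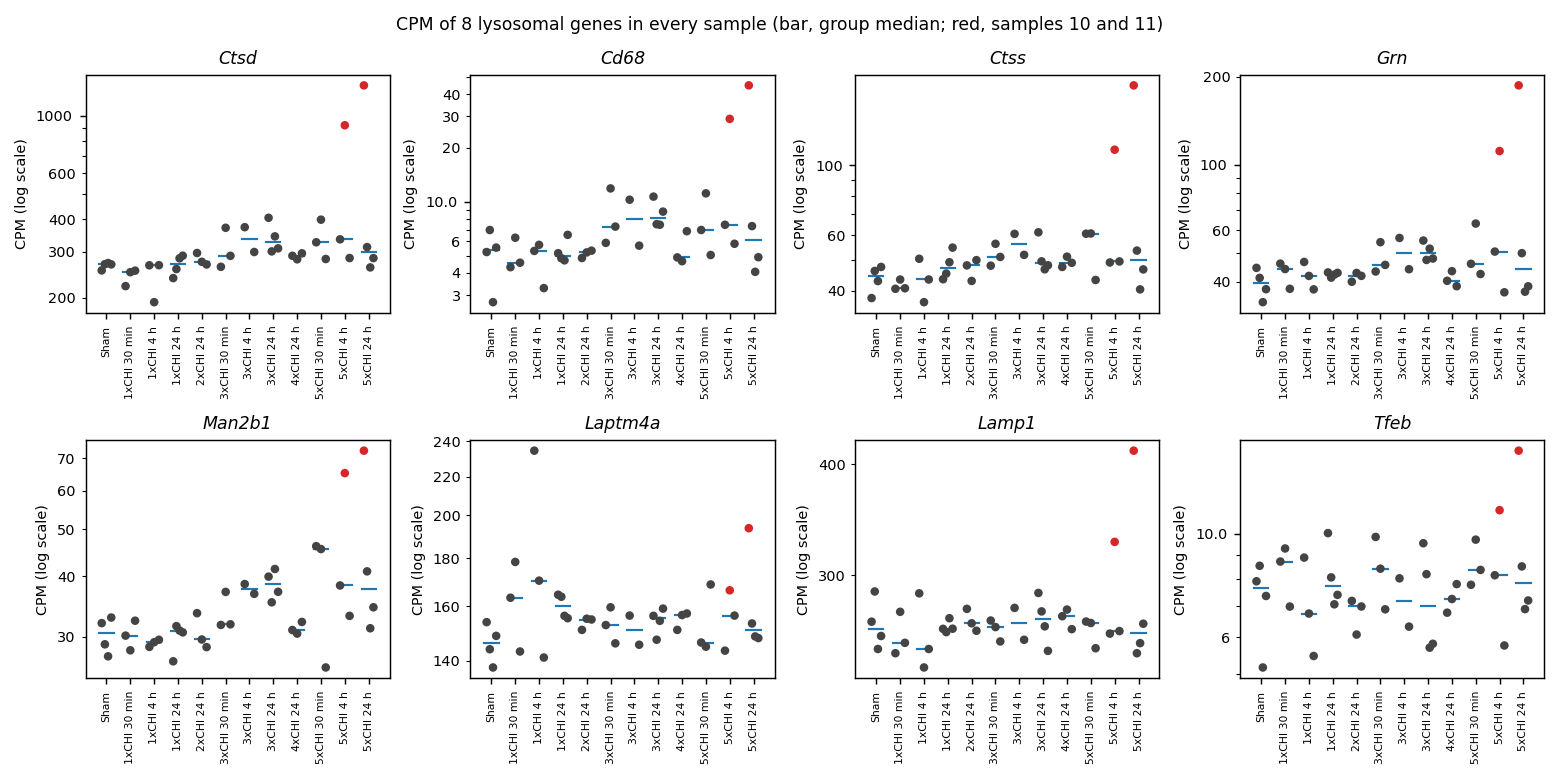
CPM (log axis) of Ctsd, Cd68, Ctss, Grn, Man2b1, Laptm4a, Lamp1 and Tfeb in every sample by injury and time, with each group's median as a bar and samples 10 and 11 in red. Ctsd reaches 920 and 1309 CPM in the red samples against at most 405 elsewhere, while Laptm4a is highest, at 234 CPM, in a sample taken 4 h after 1xCHI.

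After 3xCHI no member reached an unadjusted p under 0.05 with all samples, while the median log2 difference over the members was 0.07 against 0.00 over all features, and 33 of 39 were above 0. All 8 microglia-rich members were above 0, with a median of 0.35, a lowest of 0.20 and a highest of 0.70. Ctsc, a dipeptidyl peptidase that activates granule proteases, had the smallest p at a log2 difference of 0.48 ± 0.25 (SE, adjusted p = 0.908), followed by Man2b1 at 0.27 ± 0.16 and by Tpp1, a tripeptidyl peptidase, at 0.11 ± 0.06, both at the same adjusted p. Without samples 10 and 11, which lie in other groups but add to the shared spread, the values moved little (Ctsc 0.49, Man2b1 0.28, Tpp1 0.12). The count at an unadjusted p under 0.05 was then 13 of 39, all higher, against 3.45% of all features. These were 7 of 8 microglia-rich and 6 of 31 broad members, 8 of them proteases. The smallest adjusted p among the members was 0.238, for Lgmn, so none passed. With the samples of the compared groups alone, 14 members were higher at an unadjusted p under 0.05, against 5.12% of all features in that fit. With samples 1 to 18 as a covariate none was, against 1.31% of features. Samples 1 to 5 of 3xCHI had numbers of 18 or below.

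Tpp1 was at 72.7, 64.1, 59.5 and 65.6 CPM in the sham-injured samples, and at 67.1 to 76.2 in 3xCHI with a median of 70.3, and the groups overlapped. Ctsc was at 7.80, 6.70, 7.22 and 8.26 CPM in the sham-injured samples, and at 7.57, 6.95 and 5.39 in 2xCHI. In 3xCHI it was at 8.01, 11.7 and 8.41 CPM at 30 min, 10.4 and 6.67 at 4 h, and 11.4, 12.4, 9.75 and 15.4 at 24 h. All 4 samples at 24 h were above every sham-injured and every 2xCHI sample. Lgmn was at 95.6, 102, 91.6 and 92.8 CPM in sham-injured samples, and its 3xCHI values, 100 to 120 with a median of 110, overlapped with them at the low end. The microglial marker sum was 427 to 538 CPM in 3xCHI and 379 to 426 in sham-injured samples, without overlap. Gfap was at 206 to 530 CPM in 3xCHI and 125 to 176 in sham-injured samples, also without overlap. Their part in these differences was not tested.

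**Figure D3:**
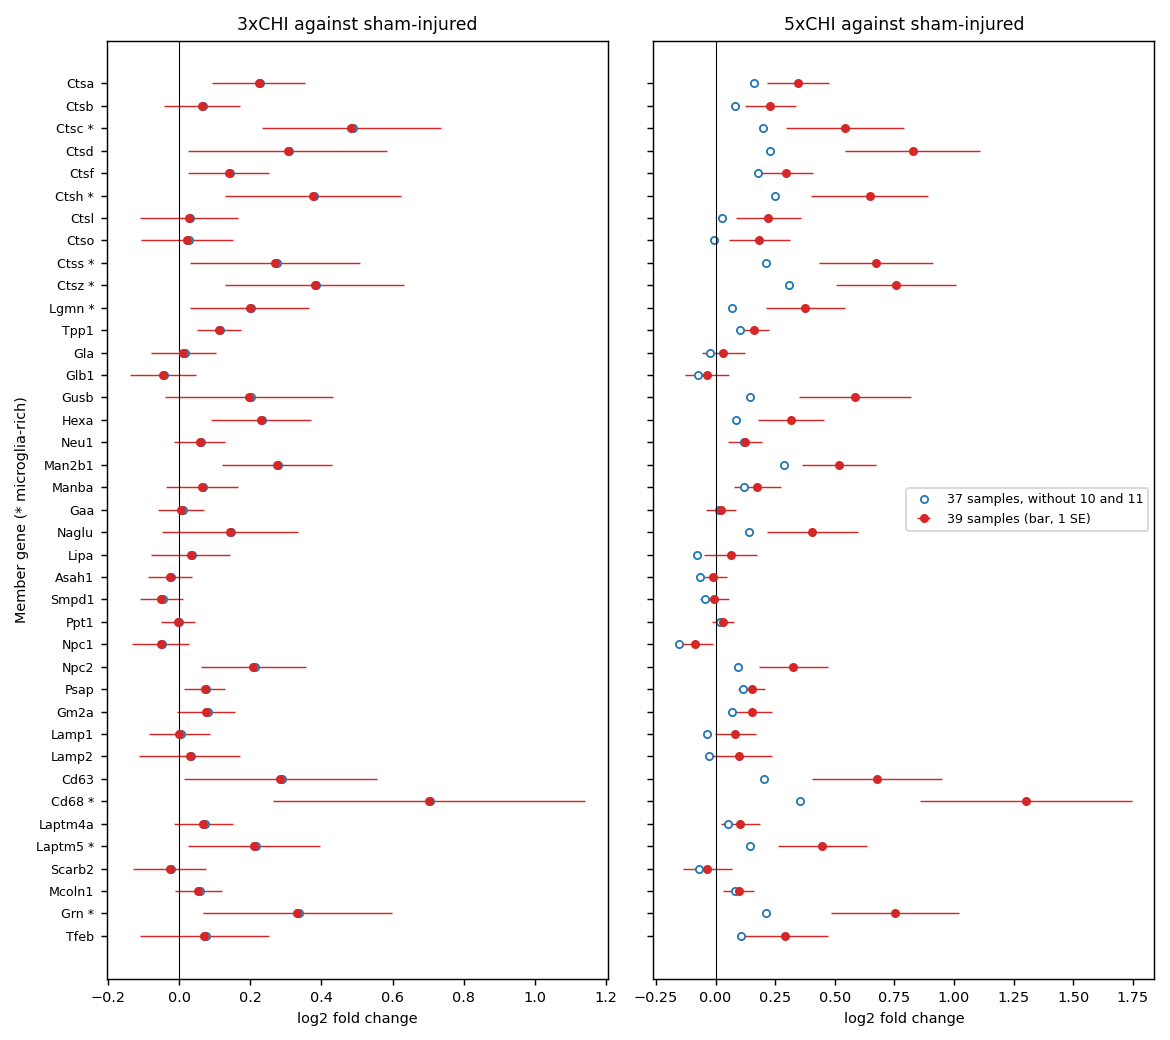
Log2 fold change of each member after 3xCHI (left) and 5xCHI (right) against sham-injured, times combined, from all 39 samples (filled, with 1 SE) and without samples 10 and 11 (open). Open and filled points nearly coincide for 3xCHI, and for 5xCHI Cd68 moves from 1.30 to 0.35 and Ctsd from 0.83 to 0.23.

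After 1xCHI the differences were small. Laptm4a, a membrane protein with several spans, was higher by a log2 difference of 0.19 ± 0.08 (SE, unadjusted p = 0.0234, adjusted p = 0.261). The cholesterol exporter Npc1 was at -0.17 ± 0.08 (adjusted p = 0.273) and the beta-galactosidase Glb1 at -0.19 ± 0.09 (adjusted p = 0.290). Laptm4a was at 154, 144, 138 and 149 CPM in the sham-injured samples and ranged from 141 to 234 CPM in 1xCHI with a median of 164, and the ranges overlapped. Npc1 was at 66.3, 68.2, 69.5 and 68.0 CPM in sham-injured samples and at 54.1 to 66.2 in 1xCHI with a median of 61.3, so that all 10 injured samples were below all 4 sham-injured ones. Glb1 was at 21.3, 20.1, 18.7 and 18.7 CPM in sham-injured samples and at 13.7 to 22.0 in 1xCHI with a median of 17.4. The summed meningeal fibroblast markers were at 549 to 3952 CPM in 1xCHI (median 943), against 674 to 1032 in sham-injured samples (median 727). The summed neuronal markers had a median of 8134 CPM in 1xCHI against 9159, and the ranges overlapped. The part of these marker levels in the member differences was not tested. Of the sham-injured samples, 1 (sample 6) had a number of 18 or below and 3 had numbers of 19 or above, whereas 6 of 10 samples of 1xCHI were at 18 or below. A fit with that split as a covariate gave no member an adjusted p under 0.05. None had passed without the covariate either, so this outcome cannot show what part the split had.

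For 2xCHI and 4xCHI, with 3 samples each, the smallest p was for Psap in both. Its log2 difference from sham-injured was 0.14 ± 0.07 for 2xCHI (adjusted p = 0.946) and 0.13 ± 0.07 for 4xCHI (adjusted p = 1.00). Psap was at 1373, 1358, 1387 and 1468 CPM in sham-injured samples, at 1561, 1527 and 1519 in 2xCHI, and at 1534, 1560 and 1478 in 4xCHI. All 6 values were above the 4 sham-injured ones. Next for 2xCHI were Npc1 at -0.17 ± 0.10 and the sialidase Neu1 at 0.11 ± 0.09, and for 4xCHI the acid ceramidase Asah1 at -0.09 ± 0.08 and the beta-mannosidase Manba at 0.15 ± 0.13. Neu1 was at 54.2, 56.5, 49.99 and 53.8 CPM in sham-injured samples and 53.3, 63.4 and 57.1 in 2xCHI. Asah1 was at 45.8, 51.5, 55.4 and 50.7 CPM in sham-injured samples and 45.8, 47.4 and 49.8 in 4xCHI. Manba was at 11.1, 12.6, 10.2 and 9.96 CPM in sham-injured samples and 11.8, 12.6 and 12.1 in 4xCHI. These groups overlapped with sham-injured ones.

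Each time point was also compared with the state before its injury, that is sham-injured for 1xCHI, 2xCHI for 3xCHI and 4xCHI for 5xCHI. No member and no feature (0%) passed an adjusted p of 0.05 in any of these 9 comparisons, while DESeq2 called 28 features at 30 min and 11 at 4 h after 1xCHI, 4 at 30 min after the third injury, 1 at 30 min after the fifth, and no member. At 30 min after 1xCHI the smallest p was for Glb1, at a log2 difference of -0.26 ± 0.12 (adjusted p = 0.237), with 14.1, 15.9 and 19.5 CPM, and it was the 1 member lower at an unadjusted p under 0.05, against 6.68% of features lower. Next were Npc1 (-0.17 ± 0.10, with 54.8, 60.8 and 65.7 CPM) and the receptor Scarb2, which delivers glucocerebrosidase to lysosomes (-0.22 ± 0.13). Without sample 27, 3587 features (23.5%) passed, with Glb1 at -0.39 (adjusted p = 0.0294) and Scarb2 at -0.38 (adjusted p = 0.0472) among them. Scarb2 was at 115, 124 and 162 CPM at 30 min, the last in sample 27, and at 140, 153, 167 and 163 in sham-injured samples.

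At 4 h after 1xCHI, Laptm4a was higher by 0.32 ± 0.11 (unadjusted p = 0.00606, adjusted p = 0.365), with 234, 170 and 141 CPM. Sample 15, the one at 234 CPM, was also the highest after samples 10 and 11 for Cd63 (84.0 CPM) and Ctsl (102.6 CPM). The other top members were the palmitoyl thioesterase Ppt1 at -0.14 ± 0.06 (87.3, 77.3 and 91.9 CPM, against 99.6, 94.6, 89.3 and 93.5 in sham-injured samples) and Glb1 at -0.24 ± 0.12 (17.9, 13.7 and 18.5 CPM). At an unadjusted p under 0.05 there was 1 member higher, Laptm4a (6.13% of features higher), and 1 lower, Ppt1 (4.33% lower). Without sample 36, the lowest of the 3 for Laptm4a, 579 features (3.80%) passed and Laptm4a was at 0.47 (adjusted p = 0.0198). Samples 15 and 16, then left at 4 h, also had numbers of 18 or below, and the part of that split was not tested. At 24 h after 1xCHI no member was at an unadjusted p under 0.05. The top members were Npc1 at -0.18 ± 0.09 (62.0, 54.8, 61.0 and 63.2 CPM), Scarb2 at -0.18 ± 0.12 (120, 115, 166 and 149 CPM) and Manba at 0.17 ± 0.12 (13.1, 12.3, 12.4 and 11.6 CPM).

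No member passed the adjusted threshold at any time after 1xCHI when samples 10 and 11 were left out. At an unadjusted p under 0.05 in that fit, Glb1 was lower at 30 min (8.99% of features lower) and Npc1 at 24 h (3.63% lower). At 4 h Laptm4a and the tetraspanin Cd63 were higher (8.59% of features higher) and Ppt1 and Ctsb lower (5.08% lower). Cd63 and Ctsb were named here after their values were seen.

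For the third injury, no member was at an unadjusted p under 0.05 at 30 min or 4 h, where the shares of all features are not given. At 24 h 1 was higher, against 2.55% of features. Ctsc was at a log2 difference from 2xCHI of 0.50 ± 0.35 at 30 min and 0.88 ± 0.33 at 24 h (unadjusted p = 0.0121, adjusted p = 0.952), where all 4 samples exceeded the 3 of 2xCHI. The other top members at 30 min were the sphingomyelinase Smpd1 at -0.11 ± 0.08 (81.6, 86.4 and 75.9 CPM, against 93.9, 88.2 and 81.1 in 2xCHI) and Psap at -0.11 ± 0.08 (1368, 1457 and 1456 CPM). At 4 h the top members were Man2b1 at 0.30 ± 0.24 (38.5 and 36.8 CPM), Tpp1 at 0.10 ± 0.10 (76.2 and 73.0 CPM, against 66.5, 72.9 and 69.2 in 2xCHI) and Cd68 at 0.64 ± 0.67 (10.3 and 5.69 CPM). With samples 1 to 18 as a covariate the signs of Tpp1 and Cd68 turned, to log2 differences of -0.011 and -0.132. At 24 h Npc1 was at 0.18 ± 0.10 (61.9, 66.0, 72.3 and 73.5 CPM, against 67.0, 58.2 and 56.2 in 2xCHI) and Scarb2 at 0.23 ± 0.13 (147, 160, 177 and 178 CPM, against 160, 133 and 132).

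Without samples 10 and 11, 3 members at 30 min, none at 4 h and 7 at 24 h after the third injury were higher at an unadjusted p under 0.05, against 1.90% of features at 30 min and 3.77% at 24 h, and no member passed the adjusted threshold (smallest adjusted p = 0.375 at 24 h).

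For the fifth injury, 1 member was at an unadjusted p under 0.05 at 30 min, 4 at 4 h and 9 at 24 h, all higher, against 3.12% of features higher at 30 min, 3.02% at 4 h and 3.90% at 24 h. Neu1 led at 30 min with a log2 difference from 4xCHI of 0.23 ± 0.10 (adjusted p = 0.775), at 61.0, 61.5 and 59.6 CPM against 48.2, 53.6 and 53.1, without overlap. Npc1 (-0.20 ± 0.10) and Scarb2 (-0.27 ± 0.14) followed. Npc1 was at 66.1, 56.1 and 47.8 CPM against 67.0, 62.9 and 65.5 in 4xCHI, and Scarb2 at 147, 140 and 126 against 172, 154 and 171. At 4 h Laptm5, a membrane protein of blood cells and microglia, was at 0.82 ± 0.26 (adjusted p = 0.907), Man2b1 at 0.55 ± 0.22 and Cd68 at 1.38 ± 0.60 (adjusted p = 0.920). Laptm5 was at 37.1, 68.7 and 24.6 CPM against 24.7, 23.8 and 25.4 in 4xCHI, so the third sample lay inside the range before injury. Man2b1 was at 38.3, 65.2 and 33.1 CPM and Cd68 at 7.44, 29.1 and 5.83, with sample 10 the highest of each. With samples 1 to 18 as a covariate, 1 member was higher at 4 h (1.99% of features) and none at 24 h, and with the compared groups alone none was at 24 h. The log2 differences at 4 h were 0.33 for Laptm5, 0.20 for Man2b1 and 0.29 for Cd68 without samples 10 and 11.

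At 24 h after the fifth injury Grn was at 0.94 ± 0.35 (adjusted p = 0.654), the beta-glucuronidase Gusb at 0.81 ± 0.31 (adjusted p = 0.654) and Cd68 at 1.48 ± 0.57 (adjusted p = 0.655). Grn was at 187 CPM in sample 11 and at 50.1, 37.0 and 38.6 in samples 12, 33 and 34, against 40.3, 43.5 and 38.7 in 4xCHI. Gusb was at 50.2 CPM in sample 11 and at 16.8, 11.7 and 12.1 in the others, against 12.1, 12.7 and 14.1 in 4xCHI. For both genes the range of the 3 samples other than sample 11 spanned that of 4xCHI. Cd68 was at 44.8 CPM in sample 11 and at 7.31, 4.06 and 4.90 in the others. Without samples 10 and 11, 4 members were higher at an unadjusted p under 0.05 at 30 min (4.67% of features) and none at 4 h or 24 h, 1 was lower at 24 h (Naglu at -0.34, against 2.42% of features lower), and the log2 differences at 24 h were 0.05 for Grn, 0.08 for Gusb and -0.00 for Cd68.

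Over 0 to 5 injuries at 24 h, no member and no feature passed an adjusted p of 0.05 for a trend (DESeq2 called 1 feature, and none of the 33 members to which it gave an adjusted p), and 19 members had a positive slope at an unadjusted p under 0.05, against 4.44% of features. Man2b1 was at 0.10 ± 0.03 log2 per injury (adjusted p = 0.565), Cd68 at 0.29 ± 0.09 and Ctsd at 0.18 ± 0.06, both at the same adjusted p. Without sample 11 (sample 10 is not a 24 h sample), 1 member, Man2b1, remained at an unadjusted p under 0.05 with a slope of 0.05, against 1.63% of features. Cd68 was then at 0.05 and Ctsd at 0.04. The test across all 12 groups gave 2 features past the adjusted threshold (0.0131%), Fosb and Npas4, neither a member, and DESeq2 called 202 features and no member. At an unadjusted p under 0.05 it gave 4 members, Man2b1, Ctsd, Cd68 and Laptm5, against 7.03% of features. It gave 8 members at that level without samples 10 and 11, against 8.61% of features, and none past the adjusted threshold. The test of whether the time course differed with the number of injuries gave 0 members even at an unadjusted p under 0.05, and edgeR called no feature (410 at an unadjusted p under 0.05; DESeq2 called 6), with the smallest unadjusted p among members for Neu1 at 0.228, Npc1 at 0.316 and Gm2a at 0.364. It gave 2 members at that level when samples 10 and 11 were left out, Naglu and Gm2a, against 3.50% of features, and none past the adjusted threshold.

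Lamp1, a marker much used for lysosomal membrane, and Tfeb, a transcription factor of many lysosomal genes, are described here by their levels and by selected differences. Lamp1 was at 266, 288, 248 and 256 CPM in the sham-injured samples and at a median of 260 in 1xCHI, 263 in 3xCHI and 262 in 5xCHI, with sample 10 at 327 and sample 11 at 415. Its largest log2 difference from a comparison group with all samples was 0.13 ± 0.12 at 24 h after the fifth injury (adjusted p = 0.895), which turned to -0.07 without samples 10 and 11, and the other 3 samples of that group were at 245, 251.5 and 264.5 CPM against 270, 274 and 261 in 4xCHI. Tfeb was at 7.91, 8.54, 5.17 and 7.36 CPM in sham-injured samples, with a median of 7.73 in 1xCHI, 8.03 in 3xCHI and 8.26 in 5xCHI. It was at 11.2 CPM in sample 10 and 15.1 in sample 11, above the other 37 samples. Its log2 difference from sham-injured was 0.29 ± 0.18 in 5xCHI (adjusted p = 0.497) and 0.11 without samples 10 and 11. In the 37 samples Lamp1 was among the steadiest members, with a coefficient of variation of 4.63%, against 16.7% for Tfeb.

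The other genes of the pathway were examined as lists. Of 24 other lysosomal enzymes and transporters, none passed an adjusted p in the comparisons with sham-injured or with the state before injury, and 6 were higher at an unadjusted p under 0.05 in 5xCHI, where 7.20% of all features were. Of 18 proton pump subunits, which acidify the lumen, 1 was higher and 1 lower in 5xCHI, where 4.36% of all features were lower. Of 16 tested Tfeb relatives and genes that dock mTORC1 to lysosomes, none was in 5xCHI, and of 9 tested sorting receptors and cystatins, 1 was higher. The median log2 difference after 5xCHI was 0.09 for the other enzymes, 0.00 for the proton pump, 0.02 for the Tfeb relatives and 0.05 for sorting receptors and cystatins, against 0.22 for the members. Without samples 10 and 11, 1 of the other enzymes and none of the other 3 lists was at an unadjusted p under 0.05 (3.60% of all features higher and 3.05% lower), and the medians were 0.04, 0.02, 0.02 and 0.03 in the same order, against 0.09 for the members.

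How the members followed microglial marker levels was then described over samples, with the mean log2 CPM of 17 microglial markers, none of them a member, as the measure. Samples 10 and 11 lay at 5.37 and 5.53 against 3.89 to 4.70 in the other 37, and they were also the 2 farthest from the median. They form a separate cluster, so Pearson's r is given for the other 37 samples. There 15 of 39 members had a positive r at an adjusted p under 0.05 over all features (100000 permutations), against 0.933% of the 15215 features that are not markers, members included, and no member had a negative r that passed. They were all 8 microglia-rich members and 7 broad ones, Ctsb, Ctsd, Gusb, Hexa, Man2b1, Npc2 and Gm2a. By Spearman's rho 12 passed, without Ctsz, Hexa and Npc2. The median r was 0.689 for microglia-rich members, 0.283 for broad members and 0.00778 for all features. With all 39 samples, 30 members passed by r, against 9.19% of features, and 14 by rho, of which 8 were microglia-rich and 6 broad.

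Ctsd, a broad member, had the highest r of the 39 at 0.894 (rho = 0.822), with a permutation p of 1e-05 for each, the smallest that the permutations can give, and adjusted p of 0.00363 and 0.00476. Laptm5 followed at r = 0.841 (rho = 0.760), Ctss at 0.777 (rho = 0.718), Ctsc at 0.741 (rho = 0.733) and Cd68 at 0.713 (rho = 0.738), with the same adjusted p. At the other end were Mcoln1, a cation channel, at r = -0.101, Laptm4a at -0.0855, Asah1 at -0.0110 and Gaa, the acid glucosidase, at 0.0172. Lamp1 was at 0.365 and Tfeb at 0.197, with adjusted p of 0.286 and 0.595. Within the 16 samples numbered 18 or below other than 10 and 11, r was 0.943 for Ctsd, 0.909 for Laptm5 and 0.870 for Ctss. Within the 21 samples numbered 19 or above it was 0.787, 0.682 and 0.472. For the 15 members the r within the lower numbers ranged from 0.689 to 0.943 and within the higher numbers from 0.248 to 0.787. They were picked by r over these same samples, so positive values were to be expected. Over all 31 broad members r ranged from -0.277 to 0.943 in the lower numbers (28 above 0). In the higher numbers it ranged from -0.249 to 0.787 (23 above 0). The 8 microglia-rich members ranged from 0.784 to 0.909 and from 0.317 to 0.682.

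**Figure D4:**
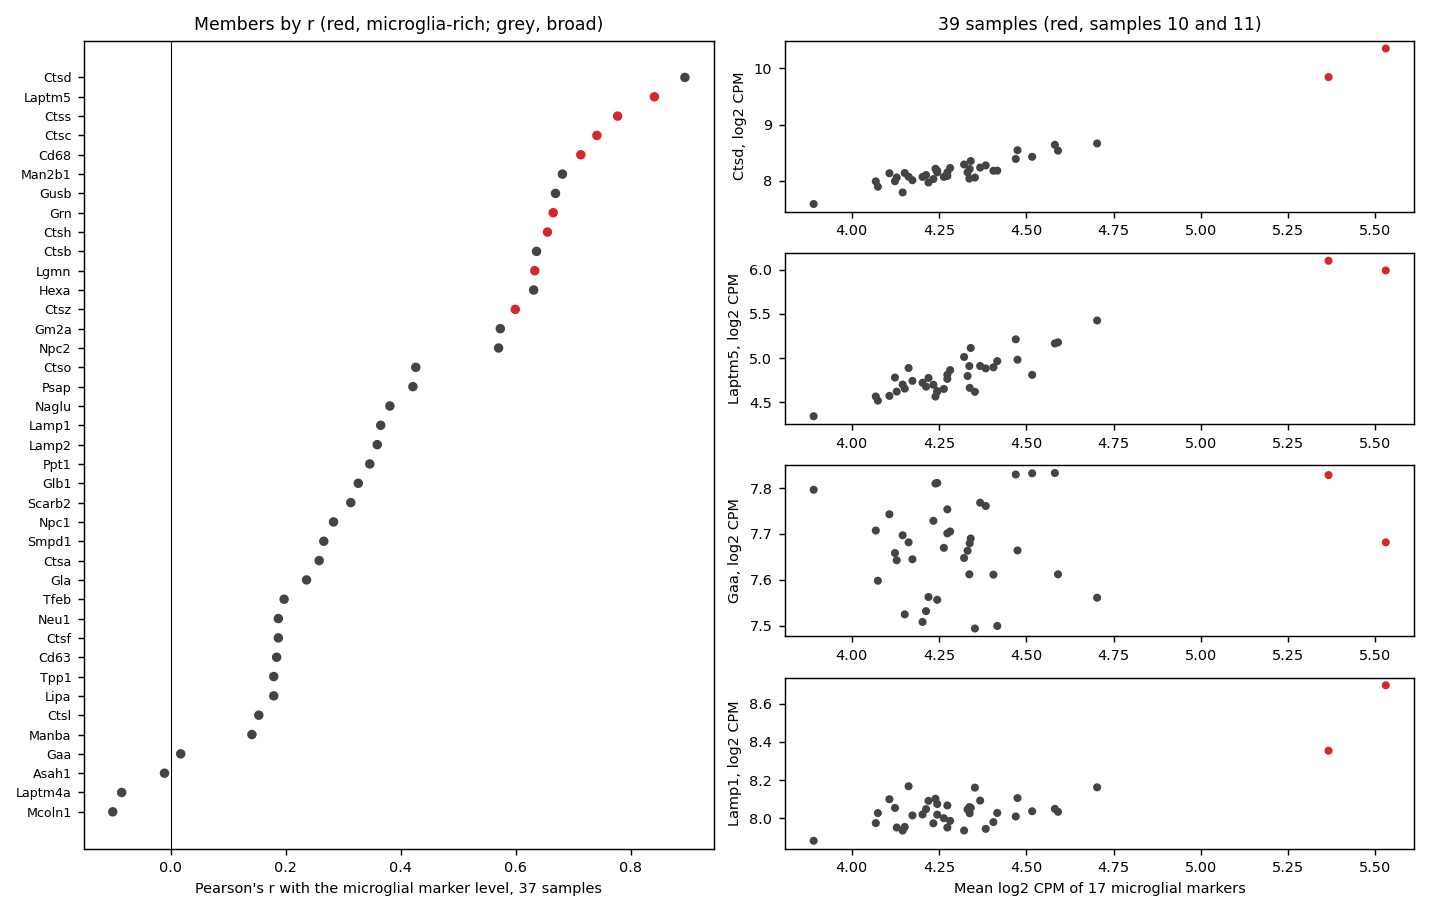
Left, Pearson's r of each member with the mean log2 CPM of 17 microglial markers over 37 samples, red for microglia-rich and grey for broad members. Right, log2 CPM of Ctsd, Laptm5, Gaa and Lamp1 against that level in 39 samples, with samples 10 and 11 in red at 5.37 and 5.53. Ctsd has the highest r at 0.894 and Gaa is near 0 at 0.0172.

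The spread over the 37 samples was given by the coefficient of variation. The coefficient of variation was 33.6% for Cd68, 25.8% for Ctsc and 19.0% for Ctsh, all microglia-rich, and 18.7% for the tetraspanin Cd63, a broad member. It was 4.63% for Lamp1, 4.87% for Ppt1, 5.47% for Psap and 5.52% for Asah1, all broad. Samples 10 and 11 were not higher than the rest for every member. Glb1, Gaa, Laptm4a, Scarb2 and Mcoln1 were within the range of the other 37 in both samples, and Gaa in sample 11 was at 1.00 times the sham-injured median.

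Depth and replicate identity bear on all values. The total count ranged from 15926014 to 27859547 per sample, with a median of 19028778, so that 1 count was worth 0.0526 CPM in the median sample. No pair of the 46 pairs of samples within groups agreed within sampling noise. The smallest mean chi-square per feature was 6.84. The study took the samples from separate females, and p-values measure the spread between these samples.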

How the data were processed

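RNA from left somatomotor cortex was sequenced, aligned and counted by Admera Health for the study, and the deposited table holds estimated counts (expected counts) per gene that the authors did not normalise. The quantifier is not named in the sources used here, although the names of the count columns end in quant.genes.sf. The submitters' processing notes name mm10. Extraction kits are named differently by the labels and the methods. The 39 genes, lists and classes were chosen with earlier results of these data known. Sample 30 (3xCHI, 4 h) was left out, as in the study. Counts, of which 4.46% were not whole, were rounded. A feature was tested if at most 4 of the 39 samples had under 10 counts (15232 features). edgeR 4.0.16 quasi-likelihood tests (R 4.3.3, TMM, Benjamini-Hochberg over all features, threshold 0.05) fitted all groups in 1 model, with the trend fitted on the 24 h and sham-injured samples. CPM used TMM library sizes. DESeq2 1.42.0, scaling, filters, all 40 samples, a covariate for samples 1 to 18 (a split of title numbers made after the data were seen, not a labelled batch), leaving out each sample, and leaving out samples 10 and 11 (added after the data were seen) were alternatives. Correlations used log2 CPM (prior count 1) and 100000 permutations, two-sided (numpy 2.4.6, scipy 1.17.1). Exon lengths came from GENCODE M21 and promoters from RefSeq. Values in the groups compared were to be given for the 3 members with the smallest p in each test, for members called, and for Tfeb and Lamp1; for the trend, the interaction and the 12-group test they are given in part. Others were named for their role or rank. Where a count of members was 0 and no share of all features is printed, the count is not a result about the members. On simulated data with known changes the test of 5xCHI made a share of false calls above its threshold, and the trend test one below.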

Additional observations from a re-analysis of the deposited data

Results flagged for a closer look

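Within groups of 4 samples, the highest or lowest value of a member was flagged where its gap to the nearest value was a larger part of the group's range than Dixon's 95% limit. Of 156 gene and group pairs 31 were flagged, where 1 in 20, about 7.8, would be flagged by chance. The members of a group were measured in the same 4 samples and are not independent, so these counts are not a test. Sample 11 of 5xCHI at 24 h accounted for 23 of them, each the highest of its group. Among the proteases sample 11 was at 960.2 CPM for Ctsb, 23.67 for Ctsc, 1309 for Ctsd, 30.3 for Ctsh, 178.8 for Ctsl, 179.4 for Ctss, 129.5 for Ctsz and 267.4 for Lgmn. Among the glycosidases it was at 20.63 for Gla, 50.15 for Gusb, 71.7 for Hexa and 18.51 for Naglu. In lipid handling it was at 27.77 for Lipa, 60.23 for Asah1, 117.1 for Npc2, 1917 for Psap and 82.56 for Gm2a. Among membrane proteins it was at 414.5 for Lamp1, 187.7 for Cd63, 44.76 for Cd68, 193.8 for Laptm4a and 63.64 for Laptm5, and it was at 186.6 for Grn.

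The other 8 were spread over samples. In 1xCHI at 24 h sample 18 was highest for Ctsf (63.58 CPM) and Gusb (14.56), sample 26 for Ctso (31.49), sample 17 for Ctsz (41.33) and sample 28 for Lipa (18.64). In 3xCHI at 24 h sample 2 was highest for Npc2 (65.31) and Laptm5 (42.99), and sample 38 was lowest for Neu1 (46.65).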

How the results depend on the processing

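The 17 tests gave no member past an adjusted p of 0.05 with library-size scaling, DESeq2's size factors, DESeq2 itself (which gave 6 members no adjusted p in the trend), no filter, all 40 samples, samples 1 to 18 as a covariate, the compared groups alone, or without samples 10 and 11. Leaving out each sample gave 0 to 2 members at 30 min after 1xCHI (without sample 27) and 0 to 1 at 4 h (without sample 36), and 0 otherwise; the cause was not tested. Counts of members higher at an unadjusted p under 0.05 moved more, and the share of all features higher in the same fit is given in parentheses. For 5xCHI the 20 (7.20%) became 12 with the covariate (3.72%), 2 with the compared groups alone (5.53%) and 6 without samples 10 and 11 (3.60%), and 12 to 22 on leaving out each sample (3.99% to 9.50%; 12 without sample 11 or sham-injured sample 35, 13 without sample 10). For 3xCHI the 0 (2.25%) became 14 with the compared groups alone (5.12%) and 13 without samples 10 and 11 (3.45%), and 0 to 8 on leaving out each sample (1.45% to 3.40%; 8 without sample 11, 1 without sample 3, 4 or 6). At 4 h after the fifth injury the 4 (3.02%) became 7 without the filter (2.72%), 1 with the covariate (1.99%) and 0 without samples 10 and 11 (1.89%), and 0 to 10 on leaving out each (1.44% to 4.93%; 0 without sample 10, 10 without sample 11 or 32, 2 without sample 24 or 25). At 24 h the 9 (3.90%) became 0 with the covariate (2.45%), 0 with the compared groups alone (1.10%) and 0 without samples 10 and 11 (2.84%), and 0 to 19 on leaving out each (2.32% to 7.25%; 0 without sample 11, 19 without 33, 17 without 34). For the trend the 19 (4.44%) became 1 without samples 10 and 11 (1.63%), and 1 to 24 on leaving out each (1.63% to 5.90%; 1 without sample 11). Members following the microglial marker level were 33 with library size (12.3% of the features that are not markers), 31 with 6 marker genes (11.7%), 30 with all 40 samples (9.34%) and 15 without samples 10 and 11 (0.933%). For the 3 members with the smallest p in each comparison and the printed differences of Lamp1, Tfeb and Ctsd, 2190 of 2199 values under alternatives kept direction and side of the threshold. The covariate turned the log2 difference of Tpp1 to -0.011 and of Cd68 to -0.132 at 4 h after the third injury. Cd68 at 24 h after the fifth turned to -0.000996 without samples 10 and 11 and ranged from -0.00931 (without sample 11) to 1.82 on leaving out each. Lamp1 at 24 h after the fifth turned to -0.0727 without samples 10 and 11 and ranged from -0.0808 (without sample 11) to 0.215. The trend was not run with all 40 samples, since sample 30 is not a 24 h sample, and only the comparisons of 2 conditions were run on the compared groups alone. No paired analysis was possible because no replicate number is shared between groups.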

Other observations

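The sample left out, sample 30 of 3xCHI at 4 h, had 12 of 39 members above every sham-injured sample and 4 below every one, in the scaling of all 40 samples, against 20.0% of all features above and 20.3% below. Relative to the sham-injured median, the complement genes C1qa, C1qb and C1qc were at 3.61, 4.09 and 3.89 in sample 10 and at 6.05, 6.09 and 6.68 in sample 11, while Cx3cr1 was at 1.83 and 1.97, Tmem119 at 1.25 and 1.45, and P2ry13 at 1.24 and 1.11.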
